A study of Mus musculus with 36 samples.

Results

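The genes described here are 10 that are commonly used to recognise tissue macrophages: the 3 chains of complement C1q (C1qa, C1qb and C1qc), the scavenger receptor Cd163, the iron exporter Slc40a1, the phagocytic receptor Mertk, the endolysosomal glycoprotein Cd68, the adhesion receptors Adgre1 and Adgre4, and the heme-degrading enzyme Hmox1. They were followed across cells sorted from the mouse thymus, with the question of how much of this macrophage-type RNA is present in the dendritic cell (DC) sorts. A gene was represented by the probe set that the platform annotation gives to its symbol alone, and by the one with the highest mean over the 36 arrays where there were several. All 10 genes were found among 18193 genes with such a probe set, on 14 probe sets in all. The arrays came from wild-type male C57BL/6J mice and covered 6 populations: Sirpa+ DC, Sirpa- DC, fibroblasts, and the epithelial populations cTEC (cortical), mTEClo (medullary, CD80 lo and MHC-II lo) and mTEChi (medullary, CD80 hi and MHC-II hi). The mice were aged 1, 3 or 6 months, and 2 arrays for each population and age make 18 groups. No group carried a transgene, deletion or treatment. The labels name 1 mouse for each sample while the design text speaks of 2 mice at each age. The 12 arrays of 1 age may therefore share animals, in which case p-values measure only the spread between these samples.

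C1q is the recognition molecule of the classical complement pathway. It is built from A, B and C chains, binds immune complexes and dying cells, and, unlike most complement proteins, which the liver makes, is produced largely by macrophages and some dendritic cells. In the thymus most thymocytes die during selection, and resident macrophages take up their remains through receptors such as Mertk, which reads phosphatidylserine on dying cells through the bridging proteins Gas6 and protein S. Macrophages that digest cells also handle heme and iron: Cd163 takes in haptoglobin-bound hemoglobin, Hmox1 opens the heme ring, and Slc40a1 (ferroportin) exports the iron. Sirpa marks one of the main conventional dendritic lineages of the thymus and is also present on macrophages.

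All 10 genes passed the filter on dim genes, a value above the median of all values (5.66 on the log2 scale) in at least 2 arrays, which 14495 genes passed. Cd163 exceeded that median in 10 arrays (5 of Sirpa+ DC, 3 of Sirpa- DC and 2 of mTEChi). Adgre4 exceeded it in 9, all of them DC arrays (6 of Sirpa+ DC and 3 of Sirpa- DC). Both genes therefore entered the tests through few arrays. Array medians lay between 5.61 and 5.75, and each of the 36 arrays correlated best with another array of its own population. Both DC sorts carried dendritic markers: the mean of Itgax (CD11c) was 11.16 ± 0.26 for Sirpa+ DC against 10.74 ± 0.24 for Sirpa- DC (log2 signal, SD, n = 6 each), and that of the growth factor receptor Flt3 was 11.16 ± 0.44 for Sirpa+ DC against 11.64 ± 0.25 for Sirpa- DC. Xcr1, a receptor of the Sirpa- lineage, lay between 4.31 and 5.08 in Sirpa+ DC arrays and between 8.80 and 9.89 in Sirpa- DC arrays. Every array therefore had the Xcr1 level of its label. In bulk RNA this cannot exclude Sirpa+ cells in a Sirpa- DC array. Sirpa itself had a range of at least 2 log2 units over the 6 Sirpa- DC arrays.

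The genes for the C1q chains lie next to each other on 1 chromosome. The stretches of 250 bases before the RefSeq start sites of C1qb (chr4:136886201-136886450, minus strand) and C1qc (chr4:136892915-136893164, minus strand) are shown. These genes were chosen as neighbours that moved together on the arrays. Cd68 (chr11:69666171-69666420, minus strand) is shown beside them as a gene that differed less between the DC sorts. Coordinates are of GRCm38.p6, and the RefSeq promoter table held 6 of the 10 genes. Each is written 5′ to 3′ on the gene's strand. Capitals mark GAGGAA (an ETS core as bound by the macrophage factor PU.1, written TTCCTC where it lies on the opposite strand), TGCTGA (a MAF core) and TGAGTCA (an AP-1 site).
C1qb: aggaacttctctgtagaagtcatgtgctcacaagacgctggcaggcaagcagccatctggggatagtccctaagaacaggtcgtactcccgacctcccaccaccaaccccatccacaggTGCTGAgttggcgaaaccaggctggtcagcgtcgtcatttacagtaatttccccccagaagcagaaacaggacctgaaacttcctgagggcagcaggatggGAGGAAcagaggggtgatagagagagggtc
C1qc: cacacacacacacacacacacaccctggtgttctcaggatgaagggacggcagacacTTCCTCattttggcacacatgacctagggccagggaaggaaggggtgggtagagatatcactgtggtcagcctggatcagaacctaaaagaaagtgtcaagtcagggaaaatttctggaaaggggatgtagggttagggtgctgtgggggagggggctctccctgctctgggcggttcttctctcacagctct
Cd68: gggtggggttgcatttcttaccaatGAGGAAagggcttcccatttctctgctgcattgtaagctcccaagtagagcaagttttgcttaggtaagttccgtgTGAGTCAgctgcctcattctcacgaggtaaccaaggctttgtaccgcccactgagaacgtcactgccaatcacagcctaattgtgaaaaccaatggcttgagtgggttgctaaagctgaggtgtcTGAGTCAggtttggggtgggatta
C1qb held GAGGAA 30 bases and TGCTGA 131 bases before its start. C1qc held the ETS core on the opposite strand, 193 bases before its start. Cd68 held GAGGAA 225 bases before its start and TGAGTCA at 149 and 24 bases. On either strand, GAGGAA occurs in 23.3%, TGCTGA in 16.1% and TGAGTCA in 4.46% of 32851 promoter windows of the same length, and these matches are a description of the sequence only.

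The C1q chains were the members with the largest separation between the DC sorts. C1qa had log2 signals of 12.09 and 12.15 at 1 month, 11.27 and 11.78 at 3 months, and 11.72 and 11.79 at 6 months in Sirpa+ DC. In Sirpa- DC it had 8.22 and 6.49 at 1 month, 6.15 and 9.22 at 3 months, and 9.23 and 9.23 at 6 months. Every Sirpa+ DC array was above every Sirpa- DC array, and the Sirpa- DC arrays spread far more. The difference was 3.71 ± 0.34 on the log2 scale (SE, 13.1-fold, limma adjusted p = 5.61e-09). The geometric mean of the Sirpa- DC signals was therefore 7.64% of that in Sirpa+ DC.

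C1qc, the C chain, behaved alike. It lay between 11.31 and 11.75 in Sirpa+ DC, and in Sirpa- DC at 8.42 and 6.61 at 1 month, 6.20 and 9.48 at 3 months, and 9.22 and 9.40 at 6 months. The sorts did not overlap and differed by 3.34 ± 0.41 (10.2-fold, adjusted p = 7.04e-07). C1qb, the B chain, lay between 10.34 and 11.94 in Sirpa+ DC, and in Sirpa- DC at 8.60 and 6.85 at 1 month, 6.52 and 9.50 at 3 months, and 9.57 and 9.62 at 6 months. It differed by 2.99 ± 0.35 (7.95-fold, adjusted p = 2.82e-07). Of the 3 probe sets of C1qb the one used was of a type that can detect related transcripts as well; the other 2 gave differences of 3.22 and 4.07. Across the fibroblast, cTEC and mTEClo arrays the 3 chains stayed between 4.26 and 6.56, so the lowest Sirpa- DC arrays reached the level of these non-dendritic sorts or little more.

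**Figure D1:**
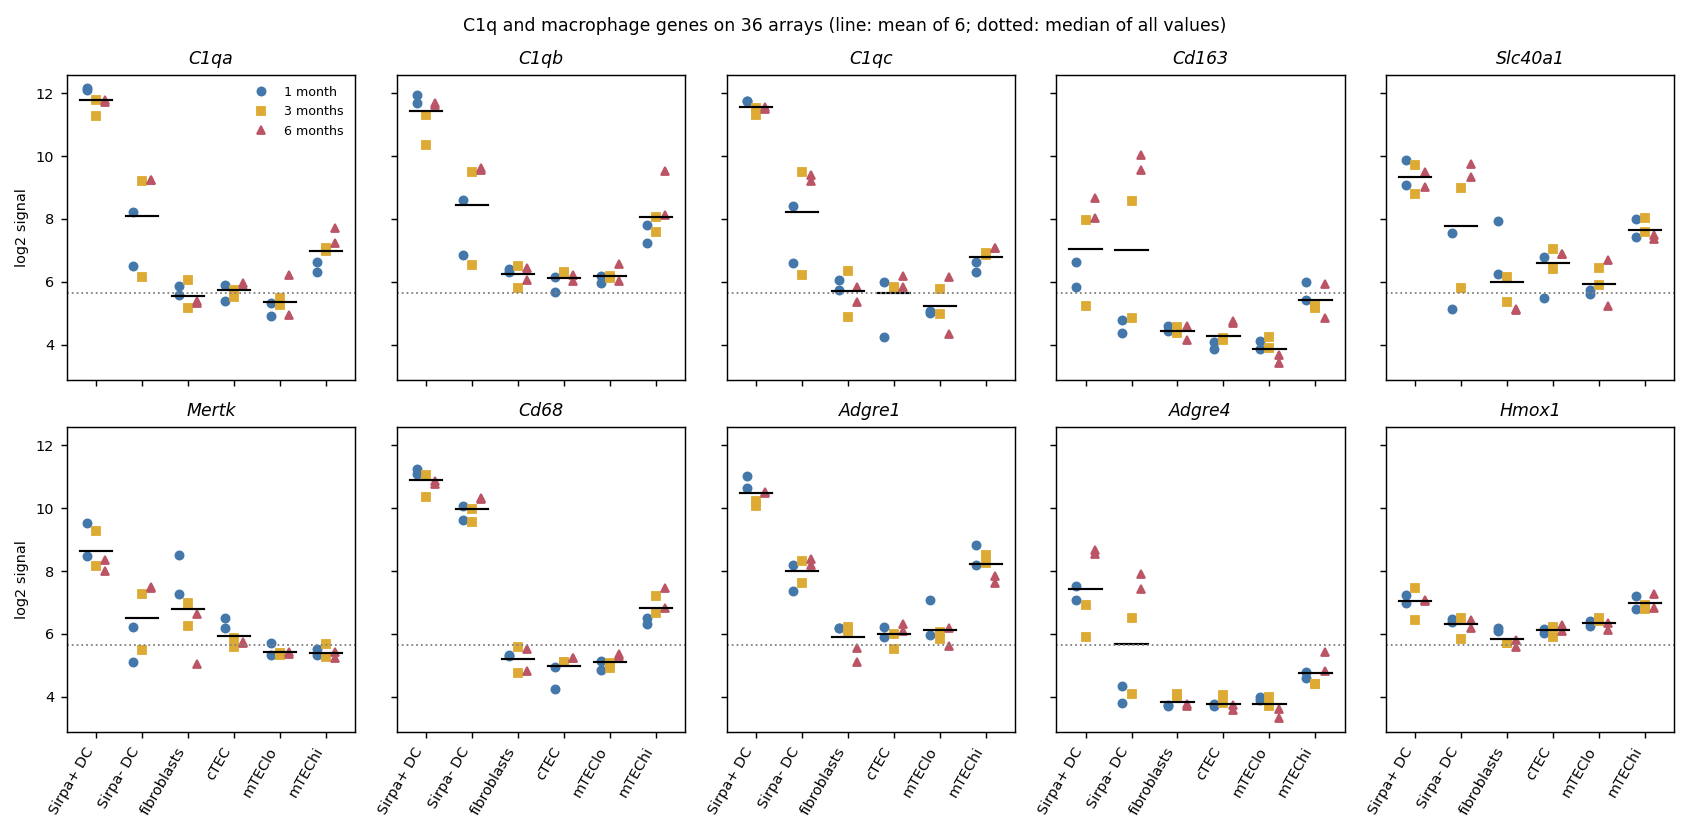
Log2 signal (y axis) of each of the 10 genes on the 36 arrays, by sorted population (x axis) and age (colour and shape), with the mean of 6 arrays as a line and the median of all values dotted. The C1q chains stand highest in Sirpa+ DC with little spread, and spread over about 3 log2 units in Sirpa- DC; Cd163 and Adgre4 are bright only in part of the DC arrays.

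Of the adhesion receptors, Adgre1 encodes the antigen F4/80, the classical surface marker of mouse tissue macrophages. It had 11.03 and 10.65 at 1 month, 10.09 and 10.24 at 3 months, and 10.53 and 10.48 at 6 months in Sirpa+ DC, against 8.20 and 7.37, 7.63 and 8.32, and 8.19 and 8.38 at the same ages in Sirpa- DC. The sorts did not overlap at any age, and the difference of 2.49 ± 0.18 had the smallest adjusted p of the 10 genes (5.6-fold, 9.99e-11). Its relative Adgre4 was dimmer and less even, with 7.08 and 7.51 at 1 month, 5.89 and 6.93 at 3 months, and 8.53 and 8.67 at 6 months in Sirpa+ DC. In Sirpa- DC it had 4.34 and 3.79 at 1 month, 4.10 and 6.50 at 3 months, and 7.43 and 7.90 at 6 months, so the sorts overlapped across ages. Its difference of 1.76 ± 0.25 was called (3.39-fold, adjusted p = 5.76e-06), but the other Adgre4 probe set, with means of 4.64 for Sirpa+ DC and 4.30 for Sirpa- DC, gave 0.34.

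Cd68 is a lysosomal protein of all mononuclear phagocytes, dendritic cells included. It was bright in both sorts, with 10.37, 10.95 and 11.24 as the lowest, median and highest Sirpa+ DC arrays and 9.57, 10.03 and 10.32 as those of Sirpa- DC. The sorts just failed to touch, and the difference of 0.93 ± 0.17 (1.90-fold, adjusted p = 0.000153) stayed under the 2-fold that a call required, but reached 1.04 and was called without the first Sirpa+ DC array of 3 months. Unlike the C1q chains, Cd68 varied by under 1 log2 unit over the Sirpa- DC arrays, and all of them were above all 24 non-dendritic arrays (4.44 ± 0.13 over their mean, adjusted p = 1.44e-19).

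Mertk, the uptake receptor, had 9.52 and 8.48 at 1 month, 8.17 and 9.27 at 3 months, and 8.0 and 8.34 at 6 months in Sirpa+ DC. In Sirpa- DC it had 6.23 and 5.12 at 1 month, 5.48 and 7.27 at 3 months, and 7.46 and 7.49 at 6 months. All Sirpa+ DC arrays were above all Sirpa- DC arrays, by 2.12 ± 0.30 on average (4.35-fold, adjusted p = 4.78e-06), though the gap was small at 6 months. Mertk was the only member for which fibroblasts (6.79) had a higher mean than Sirpa- DC (6.51), with overlapping arrays.

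The genes of heme and iron handling departed from this pattern. Cd163 had 6.63 and 5.84 at 1 month, 5.22 and 7.96 at 3 months, and 8.02 and 8.67 at 6 months in Sirpa+ DC. In Sirpa- DC it had 4.77 and 4.38 at 1 month, 4.83 and 8.57 at 3 months, and 9.55 and 10.05 at 6 months. Its means over all ages differed by 0.03 ± 0.42 (adjusted p = 0.978), and the highest Cd163 signal of the whole series was in Sirpa- DC at 6 months. Slc40a1 had 9.87 and 9.08 at 1 month, 8.80 and 9.73 at 3 months, and 9.03 and 9.48 at 6 months in Sirpa+ DC, against 7.54 and 5.15, 5.81 and 9.0, and 9.33 and 9.76 at the same ages in Sirpa- DC. Its difference of 1.57 ± 0.43 was called (2.96-fold, adjusted p = 0.00932) but rested on single arrays: without the second Sirpa- DC array of 1 month it was 1.17 (adjusted p = 0.0582), and without the first of 3 months 1.03 (0.058). The second Slc40a1 probe set gave 0.84. Hmox1 varied least, between 6.44 and 7.45 in Sirpa+ DC and between 5.83 and 6.50 in Sirpa- DC, and its difference of 0.74 ± 0.14 (1.67-fold, adjusted p = 0.00035) was under 2-fold.

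Counted together, 7 of the 10 genes were called higher in Sirpa+ DC and 0 lower, where 3.87% of all tested genes were called higher. For 6 of the 10 (the C1q chains, Mertk, Cd68 and Adgre1) every Sirpa+ DC array was above every Sirpa- DC array, which held for 6.4% of genes. The median difference was 1.94 over the 10 genes and 0.00 over all tested genes. At single ages 8 of 10 were called higher at 1 month (3.75% of genes), 5 at 3 months (3.45%) and 3 at 6 months (3.73%). At 6 months those called were C1qa (2.53 ± 0.59, adjusted p = 0.00556), C1qb (2.07 ± 0.60, 0.0310) and Adgre1 (2.22 ± 0.31, 1.88e-05), while C1qc missed the threshold (2.22 ± 0.71, 0.0568) and passed it when any 1 of 8 arrays was left out, among them each Sirpa- DC array of 1 or 3 months. Cd163 was then 1.45 ± 0.73 lower in Sirpa+ DC (adjusted p = 0.334), with both Sirpa- DC arrays above both Sirpa+ DC arrays. The geometric mean Sirpa- DC signal of C1qa was 3.67%, 7.0% and 17.3% of that in Sirpa+ DC at 1, 3 and 6 months. That of Mertk was 9.98%, 19.7% and 61.7%, and that of Cd163 31.6%, 108% and 274%. The percentages of 3 months join Sirpa- DC arrays that lay far apart, for C1qa at log2 signals of 6.15 and 9.22. At 1 month Slc40a1 (adjusted p = 0.271) and Cd68 (0.0844) were no longer called without the second Sirpa- DC array of that age, nor was Slc40a1 without the first Sirpa+ DC array (2.73, adjusted p = 0.113). Cd163 was called at 1 month without either Sirpa- DC array of 3 months (1.66, adjusted p = 0.0407). The calls at 3 months depended on single arrays, with 2 genes called without the first Sirpa- DC array of that age, 8 without the second, and 3 without the second Sirpa+ DC array. At 6 months the call of C1qb was lost without any 1 of the 4 arrays of that age, and leaving out the second array of either sort left 1 gene, Adgre1.

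**Figure D2:**
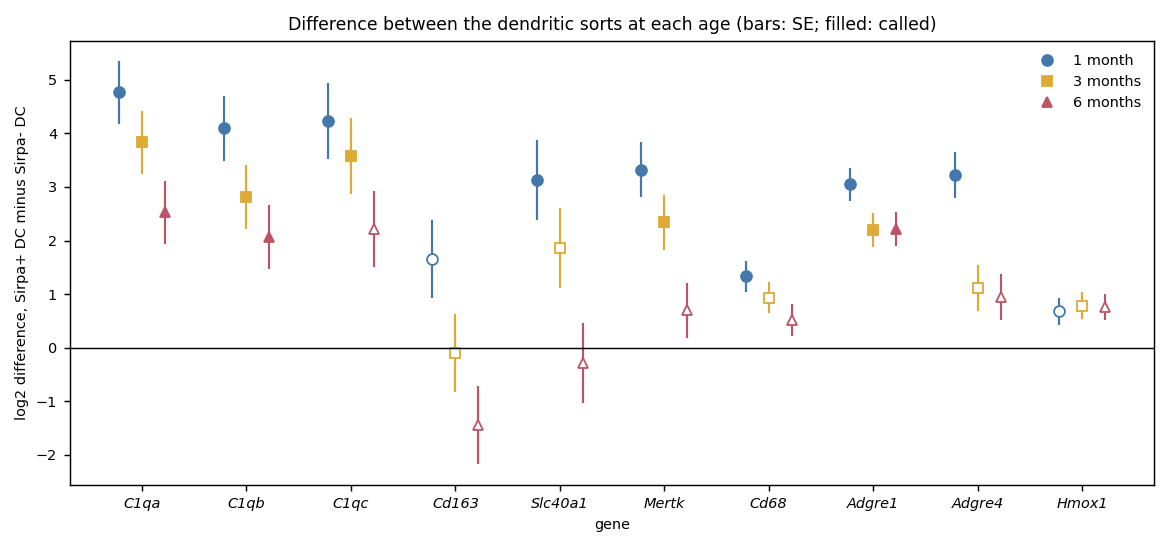
Log2 difference between Sirpa+ DC and Sirpa- DC (y axis; bars are SE from the fit) for each gene (x axis) at 1, 3 and 6 months, with 2 arrays of each sort per age. Filled symbols were called; C1qa and Adgre1 were called at every age, while the 6-month points of Cd163 and Slc40a1 lie below 0.

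Against the mean of the 4 non-dendritic populations, 9 of 10 genes were called higher in Sirpa+ DC (8.04% of genes), all but Hmox1 (0.73 ± 0.11), with C1qa at 5.89 ± 0.27, C1qc at 5.73 ± 0.32 and Cd68 at 5.37 ± 0.13. For 7 of the 10, all but Cd163, Mertk and Hmox1, every Sirpa+ DC array was above all 24 others, as 4.64% of genes were. In Sirpa- DC 8 of 10 were called higher (8.22% of genes), led by Cd68, Cd163 (2.52 ± 0.33) and C1qc (2.38 ± 0.32). These calls are against an average of sorts and do not hold against each of them. Adgre1 averaged 8.21 in mTEChi and 8.02 in Sirpa- DC. The other genes called had lower means in mTEChi than in Sirpa- DC, though close for Slc40a1 (7.64 against 7.76) and C1qb (8.05 against 8.44). The call of Slc40a1 (1.22 ± 0.34, adjusted p = 0.00269) fell under 2-fold without the first Sirpa- DC array of 1 month (0.83) or the second of 3 months (0.69). Mertk (0.62 ± 0.23) and Hmox1 (-0.01 ± 0.11) were not called. Among these calls, only Cd68 had all 6 Sirpa- DC arrays above all 24 others, as 5.15% of genes did. Adgre4, counted as higher in both sorts, had passed the filter on dim genes through DC arrays alone. The arrays measured cells in bulk, so a few cells rich in a transcript and a low level in every cell cannot be told apart, nor can macrophages inside a sort and dendritic cells that transcribe these genes.

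Other genes of the same cell type and pathways were examined as lists. Among 31 tested other macrophage genes, 20 were called higher in Sirpa+ DC and 1 was called lower (median 1.61). Those with the largest differences were the scavenger receptor Cd36, which was lower (-3.54 ± 0.16), the lipid carrier Apoe (3.24 ± 0.47), the sort marker Sirpa itself (3.18 ± 0.25) and lysozyme, Lyz2 (3.08 ± 0.29). The list's mean signal lay between 8.33 and 9.01 in Sirpa+ DC arrays and between 6.74 and 7.69 in Sirpa- DC arrays, against 6.02 to 7.29 in the other populations. The receptor of the macrophage growth factor, Csf1r, had a mean of 12.87 ± 0.20 in Sirpa+ DC, against 10.58 ± 0.53 in Sirpa- DC. Some other markers of resident macrophages, picked after their values were seen, were dim. They do not stand for the list, most of which was called higher in Sirpa+ DC. Marco, Lyve1 and Vsig4 exceeded the median of all values in 0 of the 12 DC arrays. Not all such markers were dim: Timd4, called higher in Sirpa+ DC, and Mrc1, bright on some Sirpa- DC arrays, are given below. Mrc1 had a range of at least 2 log2 units in Sirpa+ DC as well. Siglec1 had a mean of 6.65 ± 0.15 in Sirpa+ DC, against 6.50 ± 0.17 in Sirpa- DC, and Folr2 one of 6.22 ± 0.18 in Sirpa+ DC, against 5.92 ± 0.16 in Sirpa- DC.

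Among 22 tested genes for the uptake of dying cells, 11 were called higher in Sirpa+ DC (median 0.98), and Cd36 was again the 1 called lower. They included the Mertk relative Axl (2.67 ± 0.28), the lipid exporter Abca1 (2.61 ± 0.24) and the phosphatidylserine receptor Timd4 (2.42 ± 0.20). Of 22 other complement genes 4 were higher and 0 lower (median 0.26): the anaphylatoxin receptor C3ar1 (3.32 ± 0.14), factor B, Cfb (3.31 ± 0.17), C2 (1.5 ± 0.27) and Cd93 (1.03 ± 0.22). Of 25 iron and heme genes 3 were higher and 0 lower (median 0.37), namely the ferroxidase Cp (3.08 ± 0.31), the receptor Lrp1 (1.28 ± 0.26) and the biliverdin reductase Blvrb (1.23 ± 0.22).

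Among markers of other cells, 3 of 12 monocyte genes were higher and 2 lower, with the fractalkine receptor Cx3cr1 at 3.52 ± 0.16, Treml4 at -2.94 ± 0.17 and Fn1 at 2.37 ± 0.29. Of 17 dendritic genes 5 were higher and 4 lower, with Mgl2 at 3.79 ± 0.19 and Xcr1 at -4.58 ± 0.14. Of 8 neutrophil genes 1 was higher (Csf3r, 1.49 ± 0.13), of 8 thymocyte genes 1 was higher and 1 lower, and 0 of 7 plasmacytoid and 0 of 6 B cell genes were called. The epithelial markers Cdh1 (3.85 ± 0.31) and Epcam (1.67 ± 0.21) were also higher in Sirpa+ DC. Their part in the differences of the 10 genes was not tested.

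**Figure D3:**
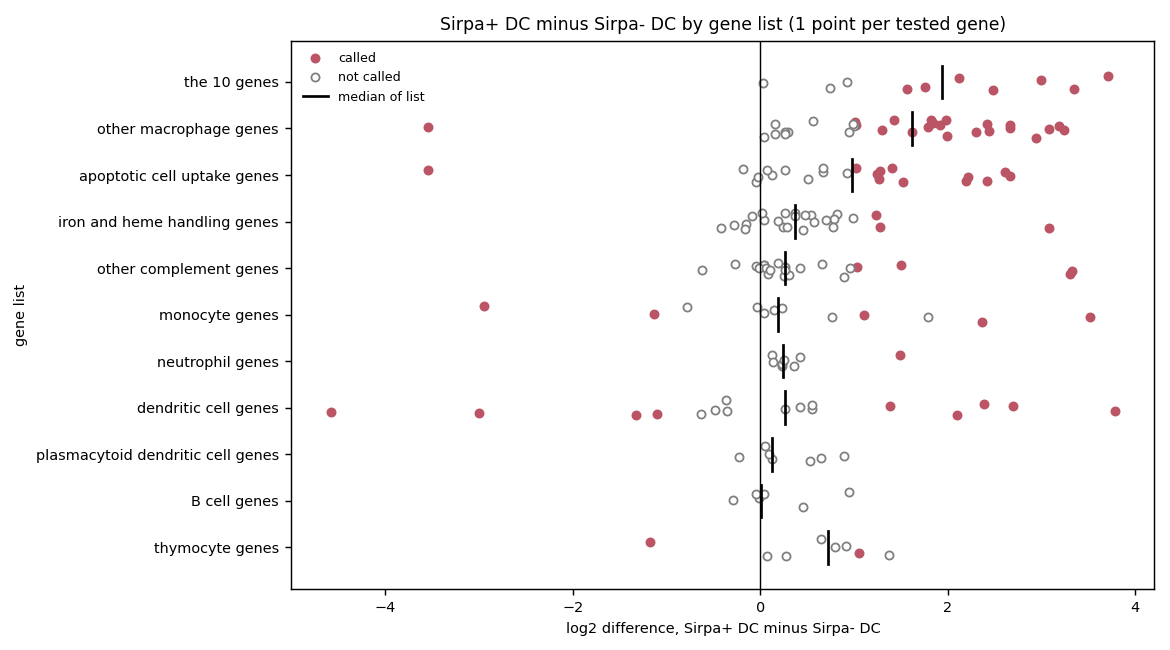
Log2 difference of Sirpa+ DC and Sirpa- DC (x axis) for each tested gene of the lists (y axis), with called genes filled and the list median as a black line. The 10 genes (median 1.94) and the other macrophage genes (median 1.61) lie mostly right of 0, with Cd36 at the far left.

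Within Sirpa- DC the arrays differed from each other in these genes more than in most. A range of at least 2 log2 units over the 6 arrays was found for 7 of the 10 genes, the C1q chains, Cd163, Slc40a1, Mertk and Adgre4, against 1.14% of all tested genes. In Sirpa+ DC it was found for 2 of the 10, Cd163 and Adgre4 (1.23% of genes). In fibroblasts it was found for 2 of the 10, Slc40a1 and Mertk (12.7% of genes), in mTEChi for 1, C1qb (1.65%), in cTEC for 0 (3.77%) and in mTEClo for 0 (2.49%). For 8 of the 10 genes, all but Cd163 and Hmox1, the second array of 1 month and the first of 3 months were the lowest pair of Sirpa- DC arrays. The 2 arrays of 3 months, which bear the same label, differed by 3.06 for C1qa, 3.28 for C1qc, 3.74 for Cd163 and 3.19 for Slc40a1. The first of them lay near the non-dendritic sorts and the second near the arrays of 6 months.

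Of the 31 other macrophage genes 7 had such a range in Sirpa- DC: Fcgr3, Mrc1, Cd14, Timd4, Sirpa, Maf and Apoe. Mrc1, the mannose receptor, had 6.55 and 5.43 at 1 month, 5.08 and 8.29 at 3 months, and 8.88 and 8.88 at 6 months. Csf1r was lowest in the same pair of arrays over a smaller range, with 10.75 and 10.09, 9.75 and 10.98, and 10.93 and 10.96. Of 17 dendritic genes 1 had such a range, Clec10a, and of 7 plasmacytoid genes 2, Siglech and Ly6d, which were highest in the first array of 1 month. The range was not confined to macrophage genes. It was also found for 3 of 8 thymocyte genes (Cd3g, Rag1 and Dntt) and 3 of 22 uptake genes (Timd4, Abca1 and Tgm2). Epas1, Chil3, Cd79b, Cdh1 and Cdh5 of other lists had it too. In Sirpa+ DC it was found for 4 of the 31 macrophage genes (Fcgr4, Mrc1, Pf4 and Gpnmb), 3 of 17 dendritic and 3 of 8 thymocyte genes. The difference between the 3′ and 5′ control probe sets of actin and Gapdh, a measure of RNA integrity that is higher in degraded RNA, was 1.82 and 1.78 at 1 month, 1.85 and 1.58 at 3 months, and 1.41 and 1.44 at 6 months in Sirpa- DC. It was highest in the first array of 3 months, which was also the lowest for the C1q chains; its part in these levels was not tested. In Sirpa+ DC it was also highest, at 2.09, in the first array of 3 months, which was the lowest Sirpa+ DC array for the C1q chains, Cd163, Slc40a1, Cd68, Adgre1, Adgre4 and Hmox1.

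**Figure D4:**
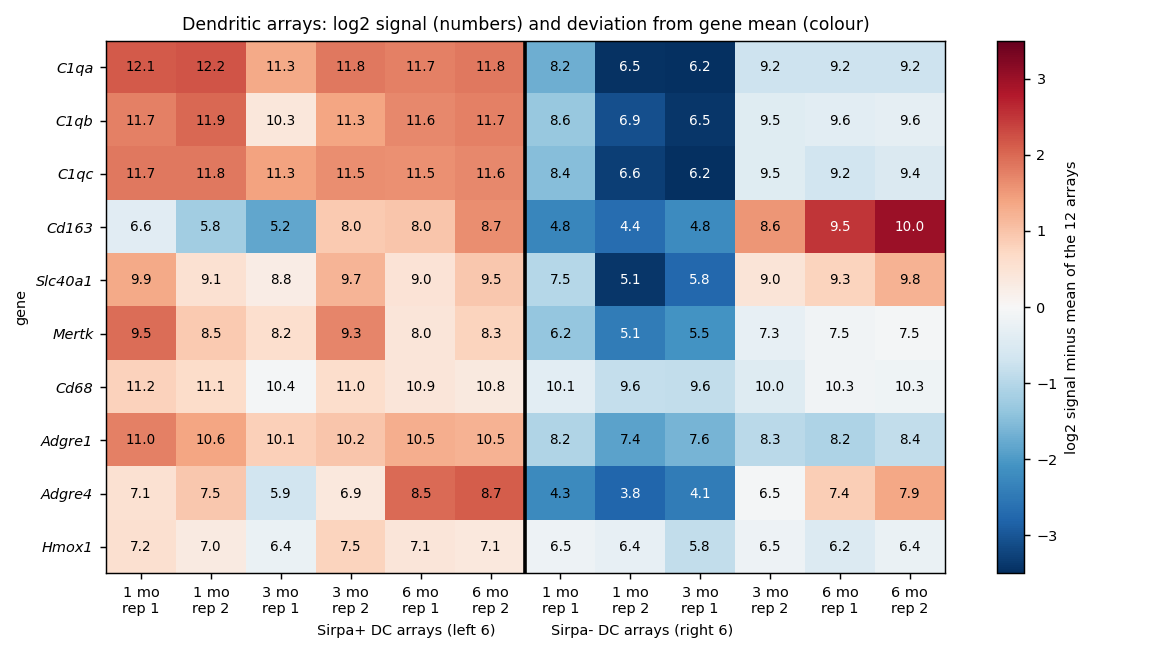
Log2 signal (numbers) of the 10 genes (rows) on the 6 Sirpa+ DC arrays (left) and the 6 Sirpa- DC arrays (right), ordered by age and replicate; colour is the deviation from the gene's mean over the 12 arrays. The second Sirpa- DC array of 1 month and the first of 3 months are the darkest blue columns, with C1qa at 6.49 and 6.15, while Cd163 is deepest red in Sirpa- DC at 6 months.

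With age, 3 of the 10 genes rose in Sirpa- DC between 1 and 6 months and 0 fell, where 0.538% of all tested genes rose. Cd163 rose by 5.22 ± 0.73 on the log2 scale (37.4-fold, adjusted p = 0.00035), Adgre4 by 3.60 ± 0.43 (12.1-fold, 6.48e-05) and Slc40a1 by 3.20 ± 0.75 (9.18-fold, 0.0383). For each of them both arrays of 6 months were above both of 1 month. With 2 arrays against 2 such a separation is easily reached, and the share of all genes that had it was not counted. The Slc40a1 call was lost without the second array of 1 month (2.00, adjusted p = 0.491), without the first of 6 months (0.185) or the second (0.360), and in a fit of the 12 DC arrays alone (0.0788). C1qa (1.87 ± 0.59, limma adjusted p = 0.140), C1qb (1.87 ± 0.60, 0.154), C1qc (1.80 ± 0.71, 0.285), Mertk (1.80 ± 0.51, 0.0977) and Cd68 (0.47 ± 0.29, 0.585) were also higher in both arrays of 6 months but were not called. C1qa and C1qb passed the threshold when either Sirpa- DC array of 3 months was left out (0.0212 and 0.0316 without the first), which leaves the values as they are and lowers the estimated spread. Other measures moved over the same arrays. The difference between the 3′ and 5′ control probe sets was 1.41 and 1.44 at 6 months against 1.82 and 1.78 at 1 month in Sirpa- DC, and 1.41 and 1.52 at 6 months against 1.75 and 1.80 at 1 month in Sirpa+ DC. In Sirpa- DC the mean signal of the thymocyte list was 6.95 and 6.82 at 6 months against 7.41 and 7.5 at 1 month, that of the epithelial list 5.97 and 6.19 at 6 months against 7.30 and 6.65 at 1 month, and that of the endothelial list 5.34 and 5.24 at 6 months against 6.17 and 5.97 at 1 month. Their part in the age changes was not tested.

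Of the other macrophage genes 2 of 31 rose in Sirpa- DC between these ages, the transcription factor Spic (1.78 ± 0.24, adjusted p = 0.000221), which drives the iron-recycling macrophages of the spleen, and Cd14 (1.55 ± 0.31, 0.0124). Of 25 iron and heme genes 1 rose, again Spic, and Epas1 fell (-2.21 ± 0.52, 0.0388). Of 12 monocyte genes Treml4 rose (1.29 ± 0.29, 0.0325), and of 17 dendritic genes Xcr1 (1.05 ± 0.24, 0.0332). 0 of 22 uptake and 0 of 22 other complement genes were called.

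Between 1 and 3 months 0 of the 10 genes were called in Sirpa- DC by limma (0.0345% of genes in either direction), with 2 at an unadjusted p under 0.05. Without the first array of 3 months Cd163 rose by 4.0 (adjusted p = 0.0025) and Adgre4 by 2.43 (0.000842). In Sirpa+ DC 0 of 10 were called between 1 and 3 months (0.331% of genes; 1 gene at an unadjusted p under 0.05) or between 1 and 6 months (2.06%; 2 genes). The 2 were Cd163, at 8.02 and 8.67 at 6 months against 6.63 and 5.84 at 1 month (2.11 ± 0.73, adjusted p = 0.130), and Adgre4 (1.30 ± 0.43, 0.115). Both became calls when either Sirpa- DC array of 3 months was left out (0.0251 and 0.00863 without the first), which changes only the shared estimate of spread. The comparisons of 3 and of 6 months share the arrays of 1 month.

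The age changes of the DC sorts were also set against each other. The change between 1 and 6 months in Sirpa+ DC less that in Sirpa- DC was called for 0 of the 10 genes by limma (0.0138% of genes), with 6 at an unadjusted p under 0.05. The smallest adjusted p was that of Adgre4 (-2.29 ± 0.61, 0.344), followed by Mertk (-2.63 ± 0.72, 0.390) and Slc40a1 (-3.42 ± 1.06, 0.570). Adgre4 passed the threshold without the first Sirpa- DC array of 3 months (0.0139) or without the second. For the change between 1 and 3 months 0 of 10 were called (0.0069% of genes; 1 gene at an unadjusted p under 0.05), and Adgre4 was called without the first Sirpa- DC array of 3 months (-3.32, adjusted p = 0.000653).

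Outside the DC sorts 9 of the 10 genes, all but Mertk, had their highest mean in mTEChi. Mertk averaged 5.41 there and 5.43 in mTEClo, both under the median of all values. The comparison of mTEChi with mTEClo was added after these means were seen. C1qb lay between 7.22 and 9.52 in mTEChi and between 5.95 and 6.56 in mTEClo, and Adgre1 between 7.64 and 8.82 in mTEChi and between 5.63 and 7.08 in mTEClo. Of the 10 genes 7 were called higher in mTEChi and 0 lower, where 11.8% of genes were called higher. They were Adgre1 (2.08 ± 0.18, adjusted p = 3.77e-10), C1qb (1.88 ± 0.35), Cd68 (1.72 ± 0.17), Slc40a1 (1.71 ± 0.43), C1qa (1.64 ± 0.34), C1qc (1.58 ± 0.41) and Cd163 (1.57 ± 0.42). Every mTEChi array was above every mTEClo array for these genes and also for Adgre4 and Hmox1. The share of all genes for which this held was not counted. Adgre4 (0.99 ± 0.25) and Hmox1 (0.63 ± 0.14) stayed under 2-fold, though Adgre4 passed it when any 1 of 5 arrays was left out. Mertk did not move with them (-0.02 ± 0.30, adjusted p = 0.966), with 5.24 to 5.69 in mTEChi and 5.33 to 5.70 in mTEClo. Neutrophil genes were higher in the same sort, for 6 of 8 tested (median 3.08), with the alarmin S100a8 at 11.36 ± 0.66 in mTEChi and 6.63 ± 1.27 in mTEClo. Of the 31 other macrophage genes 7 were higher and 2 lower, and Lyz2 averaged 11.57 ± 0.46 in mTEChi and 8.37 ± 0.67 in mTEClo. The neutrophil list's mean was 7.54 to 7.89 over mTEChi arrays and 5.13 to 6.02 over mTEClo arrays; the difference of 3′ and 5′ control probe sets was 1.73 to 2.11 in mTEChi and 1.84 to 3.07 in mTEClo. B cell genes averaged 6.41 to 6.76 over mTEChi arrays and 5.27 to 5.87 over mTEClo arrays. Dendritic genes averaged 6.61 to 7.11 and 5.92 to 6.17, and mesenchymal genes 7.12 to 7.42 and 6.27 to 6.97, in the same order. The monocyte, erythroid and endothelial list means were also higher on every mTEChi array. Those of the plasmacytoid, thymocyte, epithelial, complement, iron and uptake lists overlapped. The part of any of these measures in the levels of the 10 genes was not tested.

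In fibroblasts 1 of the 10 genes was called higher than the mean of the epithelial populations and 0 lower (8.68% of genes were called higher). This was Mertk, at 1.2 ± 0.24 (2.29-fold, adjusted p = 0.000113), and it fell under 2-fold without the first array of 1 month (0.99) or the first of 6 months (0.93). Without the first array of 1 month Slc40a1 was called lower (-1.01, adjusted p = 0.0234). Mertk had 8.50 and 7.26 at 1 month, 7.0 and 6.27 at 3 months, and 6.65 and 5.06 at 6 months in fibroblasts, so both later ages were below both arrays of 1 month. Between 1 and 6 months 3 of 10 genes fell in fibroblasts and 0 rose, where 20.4% of genes fell: Mertk (-2.03 ± 0.51, adjusted p = 0.00339), Slc40a1 (-1.98 ± 0.75, 0.0402) and Adgre1 (-0.85 ± 0.31, 0.0363). All 3 calls were lost without the first array of 1 month or without the second of 6 months, that of Adgre1 also without the second of 1 month, and that of Slc40a1 also without the first of 6 months. The first array of 1 month stood apart from the other 5 fibroblast arrays, with an erythroid list mean of 7.17 against 5.25 to 5.53 in the others. The difference between 3′ and 5′ control probe sets was 1.86 and 1.72 at 6 months against 3.15 and 2.37 at 1 month. In the same comparison 6 of 6 mesenchymal genes fell (median -2.22) and 4 of 8 thymocyte genes rose (median 1.33). The mesenchymal mean was 11.48 and 9.09 at 6 months against 12.69 and 12.51 at 1 month, and the thymocyte mean 10.65 and 10.94 at 6 months against 8.67 and 10.20 at 1 month; their part in the change was not tested.

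Between 1 and 3 months 0 of 10 genes were called in fibroblasts by limma (20.4% of genes in either direction; 1 gene at an unadjusted p under 0.05), and Mertk was called without the second array of 1 month (-1.87, adjusted p = 0.0272). In cTEC, mTEClo and mTEChi 0 of 10 were called between 1 and 3 months (5.4%, 1.77% and 0% of genes) or between 1 and 6 months (6.45%, 6.42% and 9.51%). At an unadjusted p under 0.05 there were 1 gene in cTEC and 3 in mTEChi between 1 and 6 months, and 0 in the other 4 of these comparisons.

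**Figure D5:**
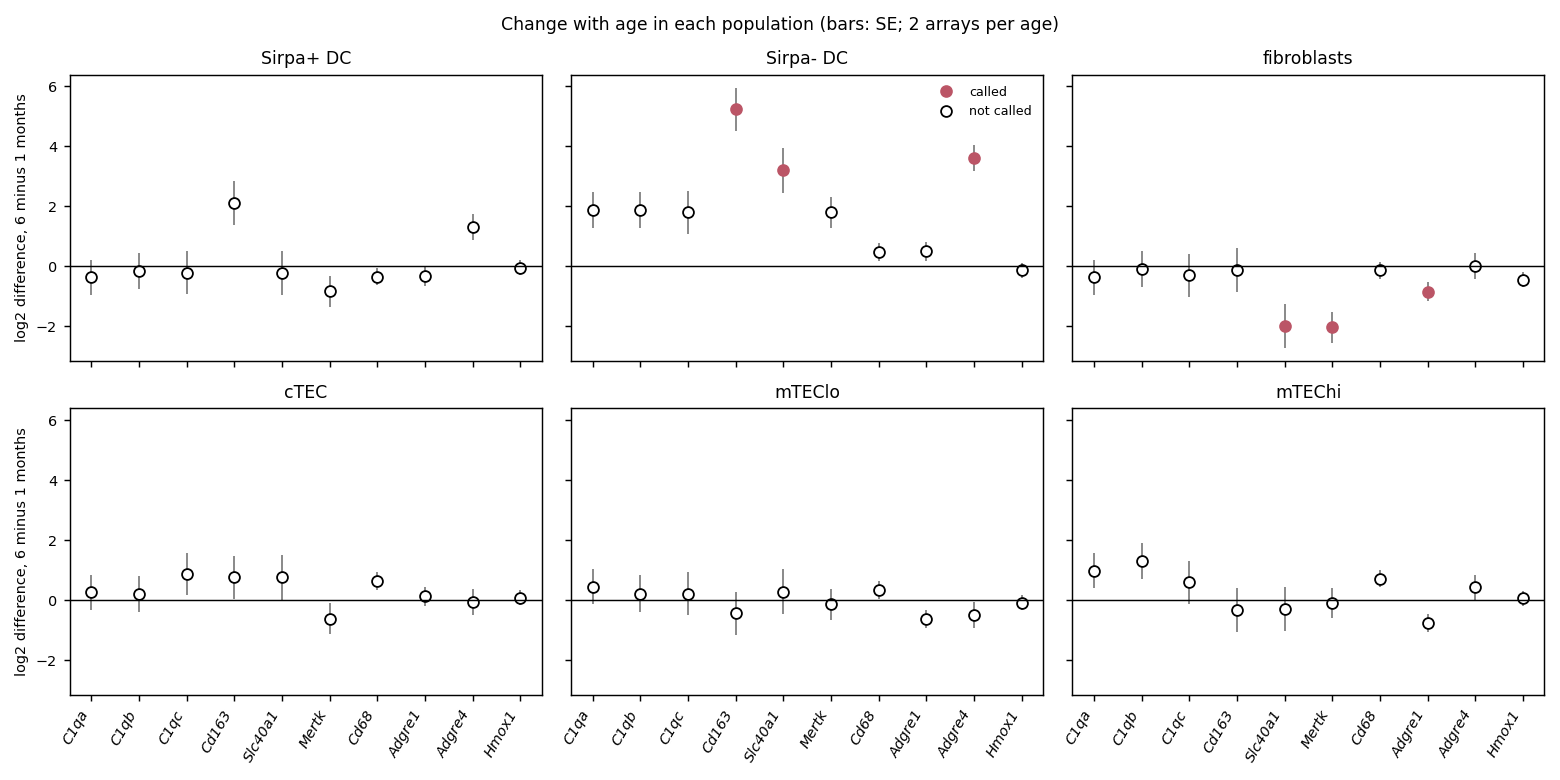
Log2 difference of 6 and 1 months (y axis; bars are SE from the fit) of each gene (x axis) within each population, 2 arrays per age. Cd163, Slc40a1 and Adgre4 were called higher in Sirpa- DC, Slc40a1, Mertk and Adgre1 lower in fibroblasts, and no gene in the other 4 populations.

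The genes whose patterns over the 36 arrays were closest were found by the root mean square distance after each gene's own mean was removed, among genes other than the 10. Closest to the mean of the C1q chains were Ms4a6d (0.55 log2 units), Fcgr3 (0.56), Cd300a (0.58), Ms4a7 (0.61) and Fcer1g (0.63). Closest to Cd68 were Ly86 (0.44), Napsa (0.47) and Aif1 (0.51), to Mertk Tmem26 (0.49), and to Adgre1 Fcer1g (0.56). The closest such gene to Cd163 was Hk2 at 1.03, farther than Adgre4 (0.74) and Slc40a1 (0.99) among the 10 themselves, and Slc40a1 and Adgre4 shared Pilrb1 among their closest (0.79 and 0.71). Distances are smaller for genes that vary little, such as Hmox1 (Sesn2, 0.28), and all arrays of a population share its cells.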

How the data were processed

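RNA was measured on 36 Affymetrix mouse genome arrays. Per the labels, total RNA was extracted with Trizol and made into biotinylated cRNA; Gene Expression Commons normalised the arrays, as the series' design text states. GCRMA is named by the submitters' processing notes, without a version. The deposited table holds these log2 signals for 45101 probe sets (values 2.62 to 14.58), already normalised by the authors and used as they are. The platform annotation gives 34945 probe sets 1 symbol, 932 several and 9160 none, beside 64 controls. A gene with several probe sets took the brightest on average, and 14495 of 18193 genes lay above 5.66, the pooled median, in 2 or more arrays. The number of arrays limits the precision.

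One model (limma 3.58.1 in R 4.3.3, intensity trend) with a mean for each of the 18 groups and 18 residual degrees of freedom was fitted to all tested genes, two-sided, with Benjamini-Hochberg adjustment over 14495 genes. Population differences were called at an adjusted p under 0.05 and at least 2-fold, age changes at an adjusted p under 0.05. The same fit was tested on simulated data of 14495 genes: for Sirpa+ DC minus Sirpa- DC it recovered 97 of 100 genes changed by 1.5 and 100 of 100 changed by 3 (log2) with 0 false calls, and for Sirpa- DC between 1 and 6 months 91 and 100 of 100 with 8 false calls. The changed genes were random, and the noise was normal, independent between arrays and equal in all groups of a gene. The 10 genes spread more and unevenly over the Sirpa- DC arrays, so these rates do not apply to them. Named genes of a list are those called with the largest differences (up to 4 between the DC sorts, up to 3 for ages and fibroblasts); markers cited for the identity of a sort, and the genes shown for the spread between arrays or for mTEChi, were chosen after their values were seen. The 10 genes and the 15 lists (202 genes, 186 with a probe set) were chosen with earlier results of these data known. Alternatives covered normalisation, probe set choice, filter, trend, thresholds, replicate blocks and leaving out each array. Replicate numbers were not used as pairs. Residual correlations of same-numbered arrays of an age had medians of 0.09, 0.17 and 0.05 at 1, 3 and 6 months. Of 15 pairs at each age, 4, 10 and 3 were over 0.1, with a maximum of 0.42 at 3 months. At 3 months the second array was above the first for each of the 10 genes in both DC sorts. For Cd163 this was by 3.74 in Sirpa- DC and by 2.74 in Sirpa+ DC. Promoter sequences and their coordinates are RefSeq's, on GRCm38.p6.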

Additional observations from a re-analysis of the deposited data

Results flagged for a closer look

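Within the 6 arrays of a population, 3 of 60 sets of values for the 10 genes held an array far from the others, where chance alone gives about 1 in 20. C1qc was at 4.26 in the first cTEC array of 1 month, while the other cTEC arrays lay between 5.81 and 6.18. Cd68 was at 4.26 in the same array, against 4.95 to 5.24 in the others. Mertk was at 5.70 in the first mTEClo array of 1 month, against 5.33 to 5.41 in the others. All 3 values are below or near the median of all values, 5.66.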

How the results depend on the processing

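Apart from leaving out single arrays, no alternative run turned the direction of a count of the 10 genes called, and 5 counts moved by over 1.5 times. With a 4-fold threshold, 4 genes were called higher in Sirpa- DC than in the non-dendritic populations, 0 in fibroblasts than in epithelium and 1 in mTEChi than in mTEClo. With probe sets of a gene averaged, 1 gene (Adgre4, 0.95, adjusted p = 0.0205) rose in Sirpa+ DC between 1 and 6 months. With quantile normalisation 1 gene fell in fibroblasts between 1 and 6 months, and the calls of Slc40a1 and Adgre1 were lost.

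Leaving out each array in turn gave 6 to 8 genes called higher in Sirpa+ DC than in Sirpa- DC over all ages, 6 to 9 at 1 month, 2 to 8 at 3 months and 1 to 4 at 6 months. It gave 7 to 8 for Sirpa- DC over non-dendritic populations, 0 to 1 higher and 0 to 1 lower for fibroblasts over epithelium, and 7 to 8 for mTEChi over mTEClo. For changes between 1 and 6 months it gave 2 to 5 genes higher in Sirpa- DC, 0 to 2 higher in Sirpa+ DC and 0 to 3 lower in fibroblasts. For those between 1 and 3 months it gave 0 to 2 higher in Sirpa- DC and 0 to 1 lower in fibroblasts, and 0 to 1 lower for each of the differences between the age changes of the DC sorts. Without the first fibroblast array of 1 month, 0 genes were called higher and 1 lower in fibroblasts than in epithelium, in place of 1 higher and 0 lower. A group left with 1 array is assumed to vary like the others.

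The replicate number within an age as a fixed replicate block changed no call of the 10 genes (7 higher in Sirpa+ DC than in Sirpa- DC). A random replicate block (correlation 0.056) added C1qc at 6 months (2.22, adjusted p = 0.0481). In a fit of the 12 DC arrays alone C1qb was not called at 6 months. The large spread of the Sirpa- DC arrays of 3 months enters the shared error of every comparison of these genes. No absolute RNA amount is known, and low signals carry no order.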
